A study of Oryza sativa with 12 samples.

Results

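The genes described here had at least 10 FPKM in each of the 3 libraries of *RGB1Ri-5* caryopses at 5 days after flowering (DAF) and at most 1 FPKM in each of the other 9 libraries of the series. FPKM count the fragments on a gene after division by transcript length and by the mapped total of the library. By this rule 49 of the 35587 genes listed in at least 1 library were chosen. The rule also left out 2 identifiers by name, neither of which met the thresholds. The genes were thus selected on their measured FPKM in all 12 libraries, and every level below describes the chosen genes and tests nothing about them. The same thresholds with another group in the high place chose 0 genes for *RGB1Ri-5* at 10 DAF, 0 genes for *WYJ8* at 5 DAF and 4 genes for *WYJ8* at 10 DAF.

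The tested plants were *RGB1Ri-5*, a single rice line in which a hairpin made from a fragment of *RGB1*, the gene for a heterotrimeric G protein beta subunit, was expressed under the maize ubiquitin promoter, a promoter active in most tissues. They were set against *WYJ8* (Wuyujing 8), the wildtype cultivar the line was made in, which carries no hairpin. Each genotype was sampled at 5 and 10 DAF, with 3 libraries per genotype and stage and 12 in all, and the RNA came from grains of field-grown plants taken from several labelled panicles. The labels and methods speak of grains and the study's results of caryopses, and whether husks were removed is not given in the sources used here. The study's methods give 3 biological replicates per experiment in the section on quantitative PCR, and do not repeat this for the sequencing. No source used here says whether the 3 libraries of a group came from separate plants, or in which season or field each was grown. The spread between them may therefore be technical. The study reports that caryopsis development was delayed in its *RGB1Ri* lines, so at the same DAF genotype and developmental age cannot be told apart. *RGB1* itself was not analysed here, because no table at hand pairs it with an identifier of the files.

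In a rice grain of this age the fertilized ovary enlarges inside the lemma and palea. The endosperm first divides as free nuclei, then forms cell walls and starts to fill with starch, while the nucellus is broken down and the seed coat matures. Remnants of the flower, such as stamens, pollen and lodicules, wither within the same husk. Transcripts found at only one genotype and stage can therefore come from several tissues, and in such bulk samples fewer cells of a type and less RNA per cell cannot be told apart.

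The 49 genes are known here by their MSU identifiers alone. The files list an identifier, a position and a value, and no table used here pairs these 49 identifiers with gene names, so no function is given for any of them. Positions are those of the files, on Release 7 of the MSU rice annotation. Values of the 3 replicates are given in the order of their numbers.

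Between 27055 and 29576 genes were listed per library and the FPKM of a library summed to between 543480 and 618797. No 2 libraries held identical values, and libraries of a group correlated across genes at 0.899 to 0.990 on the log2(FPKM + 1) scale. No read counts were used, so the depth is unknown and counting error could not be set beside the values. Genes unlisted in a library are given as 0 FPKM.

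The 49 genes together reached 2446, 2182 and 1780 FPKM in the *RGB1Ri-5* libraries at 5 DAF, which was 0.419%, 0.375% and 0.306% of all FPKM in those libraries. Their sum was 4.23, 3.84 and 22.4 FPKM in *RGB1Ri-5* at 10 DAF. In *WYJ8* the sum was 4.04, 7.09 and 6.04 FPKM at 5 DAF and 2.92, 3.63 and 2.31 FPKM at 10 DAF. The levels in *RGB1Ri-5* at 5 DAF were thus moderate to high and those elsewhere were traces, as the rule requires, and 1 library, replicate 3 of *RGB1Ri-5* at 10 DAF, held clearly more of these traces than the other 8. The median gene had 33.8, 30.2 and 24.7 FPKM in the *RGB1Ri-5* libraries at 5 DAF, and a typical member ranked high among the listed genes of those libraries, at mean percentiles of 87.2, 85.2 and 81.2.

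**Figure D1:**
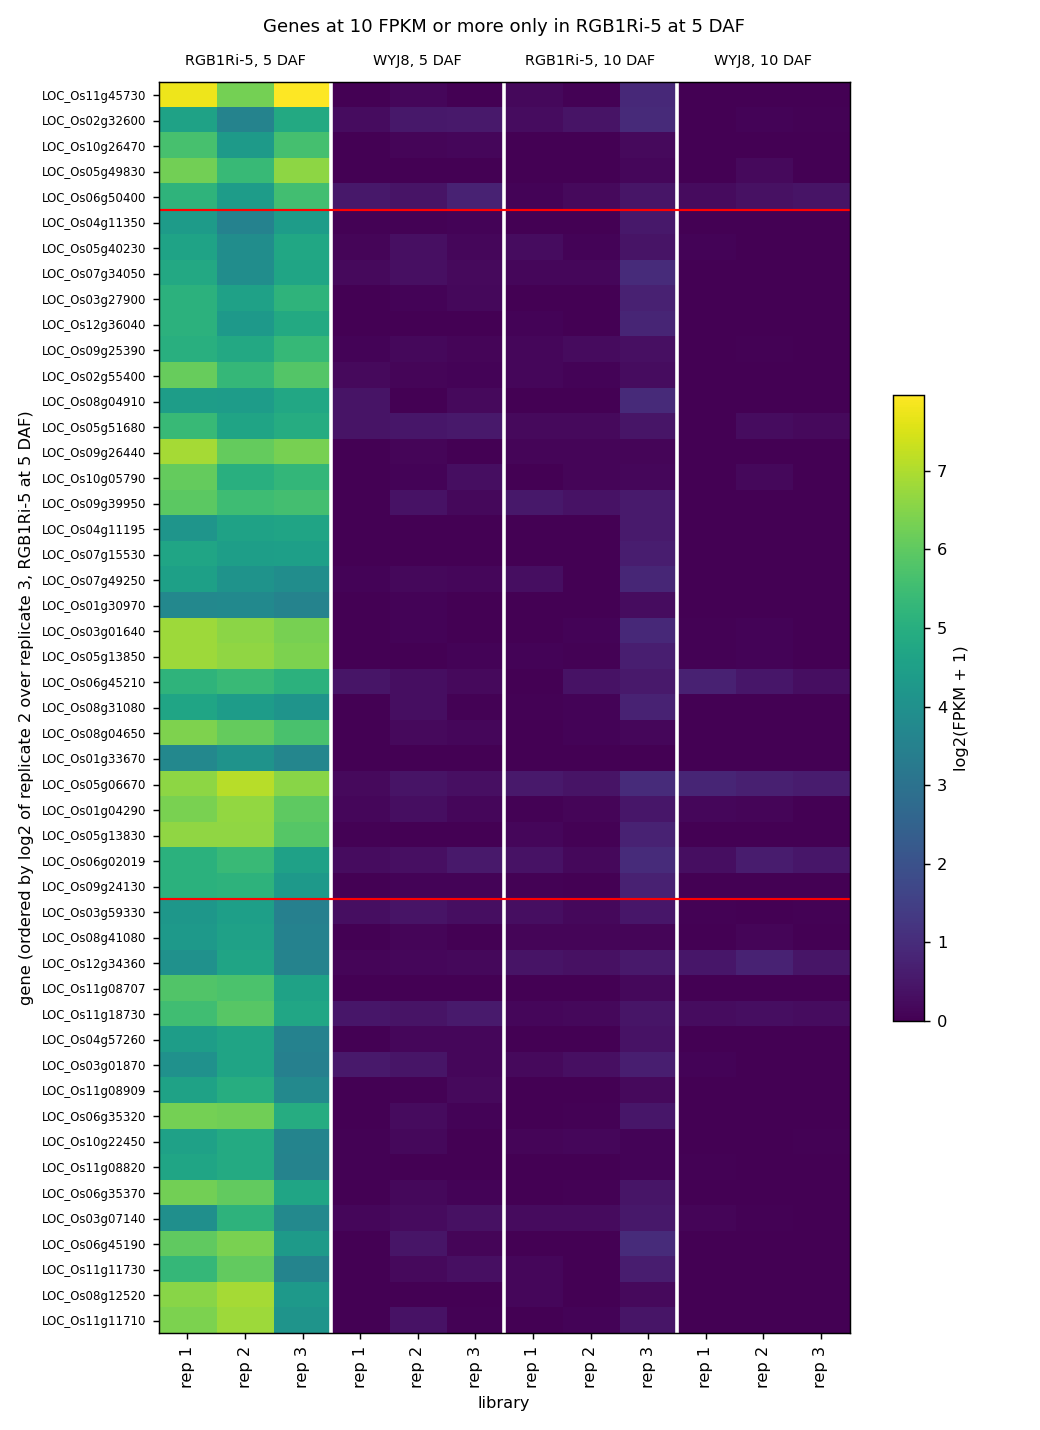
Levels of the 49 genes (rows) in the 12 libraries (columns), as log2(FPKM + 1) on the colour scale. The 3 columns of *RGB1Ri-5* at 5 DAF hold all values of at least 10 FPKM, and the faint column among the other 9 is replicate 3 of *RGB1Ri-5* at 10 DAF, where 48 of the 49 genes were listed.

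By mean level in *RGB1Ri-5* at 5 DAF, 2 of the 49 genes were at 100 FPKM or more, 14 were between 50 and 100, 24 were between 20 and 50, and 9 were below 20. The highest mean belonged to LOC_Os11g45730 (chr11:27660455-27662609), at 214, 78.6 and 249 FPKM in *RGB1Ri-5* at 5 DAF, or 181 ± 89.97 FPKM (SD, n = 3), against at most 0.103 FPKM in *WYJ8* at 5 DAF. LOC_Os05g06670 (chr5:3459615-3468755) had 96.7, 136 and 93.4 FPKM in *RGB1Ri-5* at 5 DAF, against 0.151, 0.350 and 0.261 FPKM in *WYJ8* at 5 DAF. In both genes the groups were far apart, but the replicates of *RGB1Ri-5* were spread much more widely in the first than in the second. LOC_Os05g06670 was also among the 5 genes listed in all 9 other libraries, with 0.445, 0.351 and 0.979 FPKM in *RGB1Ri-5* at 10 DAF against 0.780, 0.633 and 0.507 FPKM in *WYJ8* at 10 DAF.

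Ranked by their lowest value in *RGB1Ri-5* at 5 DAF, LOC_Os05g06670 stood first, and the next ranks held genes with very few traces in *WYJ8*. LOC_Os05g13850 (chr5:7692540-7693302) had 110.4, 98.5 and 82.6 FPKM in *RGB1Ri-5* at 5 DAF, against 0, 0 and 0.0460 FPKM in *WYJ8* at 5 DAF. LOC_Os03g01640 (chr3:397340-398440) had 110.0, 93.9 and 78.8 FPKM, against 0, 0.0471 and 0 FPKM. LOC_Os09g26440 (chr9:15980183-15981139) had 118, 67.1 and 80.3 FPKM, against 0, 0.0756 and 0 FPKM. Each of these genes was therefore unlisted in at least 1 library of *WYJ8* at 5 DAF while it passed 60 FPKM in every *RGB1Ri-5* library of that stage. LOC_Os01g04290 (chr1:1906977-1909667) had 82.1, 101 and 62.1 FPKM in *RGB1Ri-5* at 5 DAF, against 0.0944, 0.234 and 0.0931 FPKM in *WYJ8*. LOC_Os08g04650 (chr8:2322525-2323638) had 85.0, 66.7 and 50.03 FPKM, against 0, 0.149 and 0.0909 FPKM. LOC_Os09g39950 (chr9:22908995-22909706) had 60.5, 43.6 and 46.9 FPKM, against 0, 0.300 and 0.137 FPKM. No gene of this ranking overlapped between the genotypes at 5 DAF, which the rule ensures.

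Genes of middling level also stayed close to 0 in *WYJ8*, and some varied little between replicates. LOC_Os06g45210 (chr6:27329130-27330356) had 35.3, 40.7 and 33.8 FPKM in *RGB1Ri-5* at 5 DAF, or 36.6 ± 3.65 FPKM (SD, n = 3), against 0.366, 0.226 and 0.141 FPKM in *WYJ8*. LOC_Os02g55400 (chr2:33931817-33936180) had 69.0, 38.9 and 56.0 FPKM, against 0.155, 0.0822 and 0.0468 FPKM. LOC_Os09g25390 (chr9:15222651-15226444) had 31.4, 26.8 and 39.2 FPKM, against 0.0608, 0.128 and 0.0822 FPKM. All 3 thus stood well apart from *WYJ8*, with the first the steadiest of them. LOC_Os07g15530, the shortest locus of the set at 229 bp (chr7:9003991-9004219), had 24.7, 21.0 and 21.4 FPKM in *RGB1Ri-5* at 5 DAF and was unlisted in all 6 *WYJ8* libraries. LOC_Os08g04910 had 20.6, 20.2 and 26.4 FPKM and LOC_Os03g27900 had 33.7, 22.5 and 35.01 FPKM in *RGB1Ri-5* at 5 DAF. LOC_Os10g05790, with 66.5, 31.5 and 37.3 FPKM there, was the only one of the genes within 2-fold between replicates 2 and 3 whose highest library exceeded its lowest by more than 2-fold, at a ratio of 2.11. LOC_Os05g51680 had 40.4, 24.2 and 29.8 FPKM and LOC_Os06g02019 had 32.7, 41.1 and 22.6 FPKM in *RGB1Ri-5* at 5 DAF.

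The lower limit of the set is set by the threshold. LOC_Os01g30970 had the lowest mean, with 12.1, 12.7 and 10.8 FPKM in *RGB1Ri-5* at 5 DAF. LOC_Os01g33670 (chr1:18530423-18530992) had 12.05, 16.2 and 11.6 FPKM and was the 1 gene of the 49 unlisted in all 9 other libraries. Just inside the limit of 10 FPKM, by the lowest *RGB1Ri-5* library at 5 DAF, were LOC_Os03g59330 at 10.0, LOC_Os03g01870 at 10.2 and LOC_Os08g41080 at 10.5 FPKM. Just outside it were LOC_Os01g57040 at 9.63, LOC_Os01g61390 at 9.16 and LOC_Os05g08540 at 9.09 FPKM. The values on the 2 sides of the limit thus ran on without a gap.

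At the limit of 1 FPKM the values also ran on. By the highest of the other 9 libraries, LOC_Os07g34050 at 0.985, LOC_Os05g06670 at 0.979 and LOC_Os06g45190 at 0.972 FPKM were just inside, and LOC_Os04g32210 at 1.01, LOC_Os03g16410 at 1.02 and LOC_Os06g36210 at 1.02 FPKM just outside. All 3 genes inside had their highest other value in replicate 3 of *RGB1Ri-5* at 10 DAF. Over the 49 genes the highest other value had a median of 0.457 FPKM and was below 0.5 FPKM for 27 of them.

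On the log2(FPKM + 1) scale, *RGB1Ri-5* minus *WYJ8* at 5 DAF was 3.65 to 7.30 over the 49 genes with a median of 4.79, against a median of -0.07 over the 21470 genes tested. With a limma adjusted p (Benjamini-Hochberg) under 0.05 and a log2 difference of 1 or more as the call, 49 of the 49 counted as higher at 5 DAF, where 10.8% of all genes tested did and 20.8% were called in either direction. The rule used this contrast, so nothing is read from that count. The same holds for the stages within *RGB1Ri-5*, where 10 DAF minus 5 DAF was -6.96 to -3.60 with a median of -4.71, and 49 of the 49 counted as lower beside 9.35% of all genes tested. Averaged over the 12 libraries all 49 passed the filter of 1 FPKM, and did so only through *RGB1Ri-5* at 5 DAF, since the mean of the other 9 libraries was at most 0.495 FPKM.

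At 10 DAF both genotypes held only traces of the 49 genes. *RGB1Ri-5* minus *WYJ8* at 10 DAF was -0.19 to 0.50 with a median of 0.18 on the log2(FPKM + 1) scale, against a median of 0.80 over all genes tested. None of the 49 was called higher or lower, beside 36.4% of all genes called higher and 3.33% called lower at that stage. With a pseudocount of 0.1 in place of 1 the count was 11 of the 49, beside 10996 of the 21470 genes tested. The rule held both groups at or below 1 FPKM, so with a pseudocount of 1 a log2 difference of 1 was nearly out of reach, and these counts describe the rule and the pseudocount. The shift of all genes at 10 DAF fell to 0.00 when the libraries were rescaled by the median of ratios, and levels at 10 DAF are read relative to it.

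Replicates of *RGB1Ri-5* at 5 DAF differed for many of the 49 genes. The ratio of the highest to the lowest of the 3 libraries had a median of 1.91 over the 49 genes and of 1.21 over the other 9975 genes with at least 10 FPKM in each of these libraries. Replicate 3 was the lowest library for 30 of the 49, replicate 2 for 18 and replicate 1 for 1. Between replicates 2 and 3 the levels differed at least 2-fold for 22 genes, or 44.9%, against 2.50% of the 9975 other genes.

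That difference was not a single shift of all 49 genes. Replicate 2 was at least 2-fold over replicate 3 for 17 genes, replicate 3 was at least 2-fold over replicate 2 for 5 genes, and 27 were within 2-fold. The log2 ratio of replicate 2 over replicate 3 was -1.66 to 2.73 with a median of 0.31, against a median of 0.07 over the other genes. Across the 49 genes the log2 levels of replicates 1 and 2 correlated at 0.82, those of replicates 1 and 3 at 0.79 and those of replicates 2 and 3 at 0.46, against 0.96, 0.99 and 0.96 across the other genes. The balance of 17 against 5 came with the rule, since without replicate 3 of *RGB1Ri-5* at 10 DAF it would be 24 against 53 among 191 genes. The correlations are across genes of the same libraries, which are not independent replicates. They also depend on the range of levels, which was not matched between the 49 and the other genes.

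**Figure D2:**
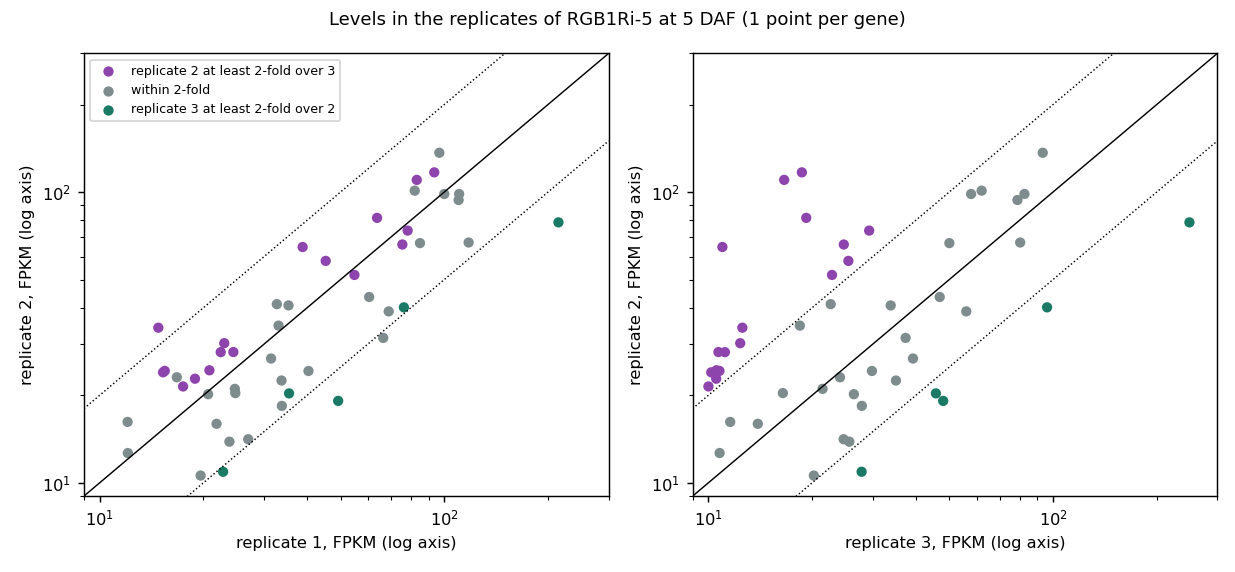
Level of each of the 49 genes in replicate 2 of *RGB1Ri-5* at 5 DAF against its level in replicate 1 (left) and replicate 3 (right), in FPKM on log axes, with a full line at equality and dotted lines at a 2-fold difference. The colours mark 17 genes at least 2-fold higher in replicate 2 than in replicate 3, 5 at least 2-fold higher in replicate 3 and 27 within 2-fold, and the first set leaves the 2-fold band in the right panel.

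The 17 genes that were higher in replicate 2 summed to 706, 860 and 267 FPKM in the 3 libraries of *RGB1Ri-5* at 5 DAF, and replicate 1 lay between the others for 14 of them. LOC_Os11g11710 (chr11:6509992-6511216) showed the widest gap, with 83.2, 110.1 and 16.6 FPKM. LOC_Os08g12520 (chr8:7410177-7411394) had 93.5, 117 and 18.7 FPKM, and was unlisted in all 6 *WYJ8* libraries. LOC_Os06g45190 (chr6:27323837-27324411) had 63.8, 81.5 and 19.2 FPKM. In these 3 genes replicate 2 exceeded replicate 3 by 4.24- to 6.64-fold, while replicate 1 was much nearer to replicate 2. LOC_Os06g35320 had 78.3, 73.7 and 29.3 FPKM and LOC_Os06g35370 had 75.6, 66.0 and 24.7 FPKM in *RGB1Ri-5* at 5 DAF. LOC_Os11g18730 (chr11:10609646-10615875) had 45.3, 58.0 and 25.5 FPKM. The others of this pattern had 22.8 FPKM or less in replicate 3.

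The 5 genes that were higher in replicate 3 ran the other way and summed to 398, 169 and 466 FPKM, with replicate 1 between the others for 4 of them. They were LOC_Os11g45730, given above, LOC_Os05g49830 with 76.4, 40.1 and 96.1 FPKM, LOC_Os10g26470 with 49.2, 19.1 and 48.0 FPKM, LOC_Os06g50400 with 35.4, 20.3 and 45.7 FPKM, and LOC_Os02g32600 with 22.8, 10.9 and 27.8 FPKM. Their log2 ratio of replicate 2 over replicate 3 was -1.66 to -1.17. The 27 genes within 2-fold summed to 1341, 1153 and 1047 FPKM, and the smaller difference between these sums follows from how the patterns were defined.

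A high share of genes with such replicate differences was also found outside the set, among genes that were high in the same group. For the other genes with at least 10 FPKM in each *RGB1Ri-5* library at 5 DAF, specificity was taken as the log2 ratio of the mean in that group to the highest mean of another group, with 1 FPKM added to both. Of 363 genes with a specificity of at least 3, 30.9% differed at least 2-fold between replicates 2 and 3. The share was 13.8% of 653 genes between 1 and 3, 0.802% of 3242 genes between 0 and 1, and 0.367% of 5717 genes below 0. Of those 363 genes, 22 were at least 2-fold higher in replicate 2 and 90 in replicate 3, while the opposite balance among the 49 rests on the limit in replicate 3 of *RGB1Ri-5* at 10 DAF. What moves with these differences was not tested.

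**Figure D3:**
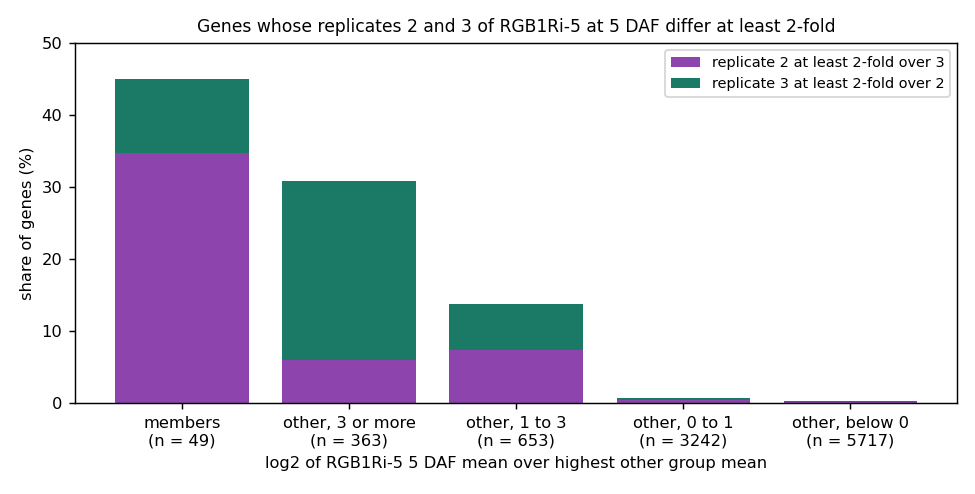
Share of genes, in percent, that differed at least 2-fold between replicates 2 and 3 of *RGB1Ri-5* at 5 DAF, for the 49 genes and for other genes with at least 10 FPKM in each library of that group, by how much higher the group was than any other (log2 specificity). The share is 44.9% for the 49 genes and falls in the other genes to 30.9%, 13.8%, 0.802% and 0.367% with lower specificity.

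Traces in the other 9 libraries were uneven. Of the 49 genes, 31, 30 and 48 were listed in the replicates of *RGB1Ri-5* at 10 DAF. In *WYJ8*, 22, 39 and 36 were listed at 5 DAF and 17, 16 and 11 at 10 DAF. Replicate 3 of *RGB1Ri-5* at 10 DAF had the highest value of all 9 libraries for 37 genes and was above both other replicates of its group for 45 genes, or 91.8%. The same held for 50.3% of the 21421 other genes tested, and for 96.1% of the 363 other genes with a specificity of at least 3.

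Summed over the 49 genes, replicate 3 of *RGB1Ri-5* at 10 DAF held 1.05% of the *RGB1Ri-5* mean at 5 DAF, against 0.198% in replicate 1 and 0.180% in replicate 2. Gene by gene that share had a median of 1.00% and ran up to 4.62%, which was reached by LOC_Os07g49250 with 0.797 FPKM in that library. LOC_Os02g32600 followed with 0.934 FPKM, or 4.55%. The limit of 1 FPKM sets a ceiling on this share that is lower for genes with higher levels at 5 DAF, so the order of the shares is not read. LOC_Os11g45730, the gene with the highest mean, had 0.887 FPKM in that library, or 0.491%. Whether the traces came from material like that sampled at 5 DAF was not tested.

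**Figure D4:**
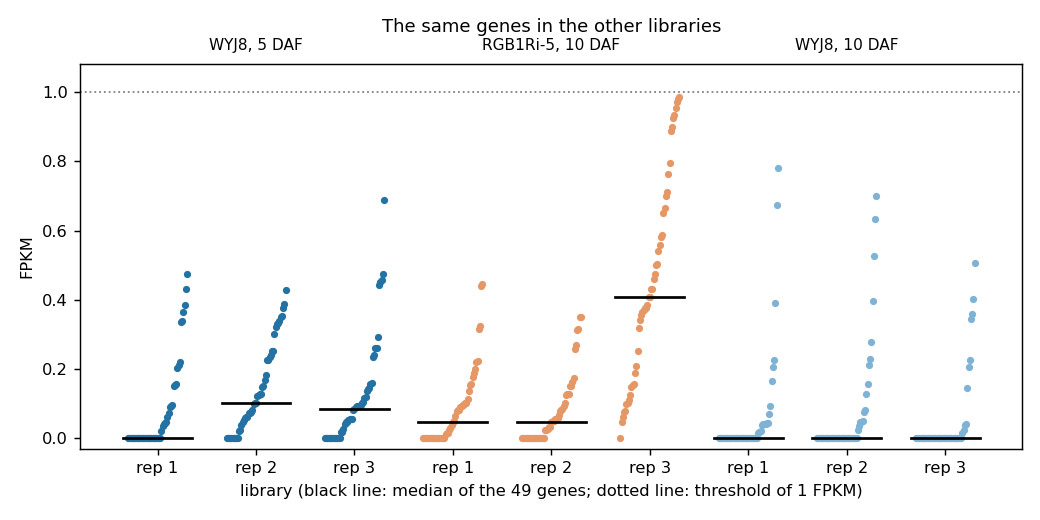
Levels of the 49 genes in the 9 libraries outside *RGB1Ri-5* at 5 DAF, in FPKM, with 1 point per gene sorted by level, a black line at the median of each library and a dotted line at 1 FPKM. Replicate 3 of *RGB1Ri-5* at 10 DAF has a median of 0.407 FPKM, and the medians of the other 8 libraries are between 0 and 0.103 FPKM.

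That library also decided how many genes met the rule. Without replicate 3 of *RGB1Ri-5* at 10 DAF, 191 genes would have been chosen in place of 49. The 142 further genes had 1.01 to 19.9 FPKM in that library with a median of 3.49 FPKM, and a median of 51.0 FPKM for their mean in *RGB1Ri-5* at 5 DAF. Their median share of the 5 DAF mean was 7.90%. Of these 142 genes, 110 were higher in replicate 3 than in replicate 2 of *RGB1Ri-5* at 5 DAF, 48 of them at least 2-fold, and 7 were at least 2-fold higher in replicate 2. The 49 genes are thus the part of a larger set that stayed at or below 1 FPKM in that 1 library.

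The 49 genes lay on all 12 chromosomes, with 2 to 7 on each. Chromosome 11 held 7 of them, or 14.3%, and 6.35% of all listed genes. Within 100 kb of one another lay 13 genes in 8 pairs, among them LOC_Os11g08707, LOC_Os11g08820 and LOC_Os11g08909, a group of 3. These had 54.9, 51.9 and 22.8 FPKM, 24.4, 28.2 and 10.7 FPKM, and 23.0, 30.2 and 12.4 FPKM in *RGB1Ri-5* at 5 DAF. All 3 were at least 2-fold higher in replicate 2 than in replicate 3.

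Some nearby genes had like ratios between replicates, and others did not. LOC_Os11g11730 (chr11:6519794-6521680), 8578 bp from LOC_Os11g11710, had 38.8, 64.7 and 10.98 FPKM in *RGB1Ri-5* at 5 DAF, and the log2 ratios of replicate 2 over replicate 3 were 2.56 and 2.73 for the pair. The ratios were 1.33 for LOC_Os06g35320 and 1.42 for LOC_Os06g35370, which lay 27680 bp apart. LOC_Os05g13830 and LOC_Os05g13850, 6148 bp apart and both 763 bp long, had ratios of 0.77 and 0.25, with LOC_Os05g13830 at 99.98, 98.5 and 57.8 FPKM. LOC_Os06g45190, at 2.08, was unlike LOC_Os06g45210, at 0.27, although they lay 4719 bp apart. LOC_Os04g11195 and LOC_Os04g11350, 96822 bp apart, had ratios of -0.06 and -0.93. The median absolute difference of these ratios was 0.193 over the 8 near pairs and 1.09 over all 1176 pairs of the 49 genes. Pairs among LOC_Os11g08707, LOC_Os11g08820 and LOC_Os11g08909 share genes, so the near pairs are not independent. The near pairs on chromosomes 5 and 4 differed by 0.51 and 0.87, and the widest near pair by 1.81. Pairs of like length can be near-identical copies between which reads are divided, which was not tested, so their single values are uncertain.

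The 44 genes with a locus of their own were short, with a median span of 1250 bp (229 to 6419 bp), against 3608 bp for the 9481 other genes with at least 10 FPKM in each *RGB1Ri-5* library at 5 DAF and a locus of their own. The other 5 genes shared a locus in the files with an overlapping gene, so their levels are uncertain: LOC_Os03g07140, LOC_Os03g59330, LOC_Os05g06670, LOC_Os05g49830 and LOC_Os05g51680. The partner of LOC_Os05g49830 was itself at 41.1, 42.1 and 39.9 FPKM in *RGB1Ri-5* at 5 DAF, against 2.18, 1.89 and 2.29 FPKM in *WYJ8* at 5 DAF.

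The genes around the 49 were mixed in direction. Of 587 tested genes within 100 kb of them, 104 (17.7%) were called higher and 54 (9.20%) lower in *RGB1Ri-5* than in *WYJ8* at 5 DAF, beside 10.8% and 10.1% of all genes tested. Their median log2 difference was -0.0044, and the difference in shares was not tested. The share called higher was 18.5% of 324 genes within 50 kb and 15.2% of 1035 genes within 200 kb, distances that were added after the data were seen.

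Genes with known expression in flower and grain tissues were set beside the 49. Of 31 identifiers listed as markers, 8 are named by the supplement of the study and were used, and none of the 8 is among the 49. The other 23 identifiers, with all of those listed for pollen and tapetum, were not used because no table at hand names them. Of these 23, only LOC_Os03g01640 is among the 49, and no tissue is read from it. *OsMADS2*, a PISTILLATA-like MADS-box gene for the identity of lodicules and stamens, had 69.1, 63.2 and 78.0 FPKM in *RGB1Ri-5* at 5 DAF, against 11.8, 14.8 and 11.7 FPKM in *WYJ8* at 5 DAF. The groups did not overlap, and the log2 difference was 2.37 ± 0.21 (SE, n = 3 each; limma adjusted p = 4.36e-06). *OsNF-YB1*, an endosperm nuclear factor Y subunit, had 0.155, 0.607 and 0.0754 FPKM in *RGB1Ri-5* at 5 DAF, against 148, 133 and 294 FPKM in *WYJ8* at 5 DAF, a log2 difference of -7.16 (limma adjusted p = 7.10e-06). The one endosperm marker used was therefore near 0 in the same 3 libraries in which the 49 genes were high, and its part in their levels was not tested.

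The other named floral markers did not move with *OsMADS2* at 5 DAF. *OsMADS58*, a class C MADS-box gene of stamen and carpel development, was lower in *RGB1Ri-5* by 1.10 on the log2 scale (limma adjusted p = 0.000503). *OsMADS3*, its class C relative, differed by 0.012 (limma adjusted p = 0.963), a value whose sign changed with quantile normalization. Of the seed coat and nucellus markers, *OsMADS29*, which acts in the breakdown of the nucellus, was lower by 2.35 on the log2 scale (limma adjusted p = 6.96e-07). *OsMADS21* was lower by 1.40 (limma adjusted p = 6.82e-06). *OsMADS13*, an ovule identity gene, differed by -0.23 (limma adjusted p = 0.307), and *OSH1*, a KNOTTED1-like homeobox gene expressed in the embryo, by 0.27 (limma adjusted p = 0.350). Thus 1 of the 8 was called higher and 4 were called lower at 5 DAF. Given the delay that the study reports, these differences cannot be told apart from a difference in developmental age.

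**Figure D5:**
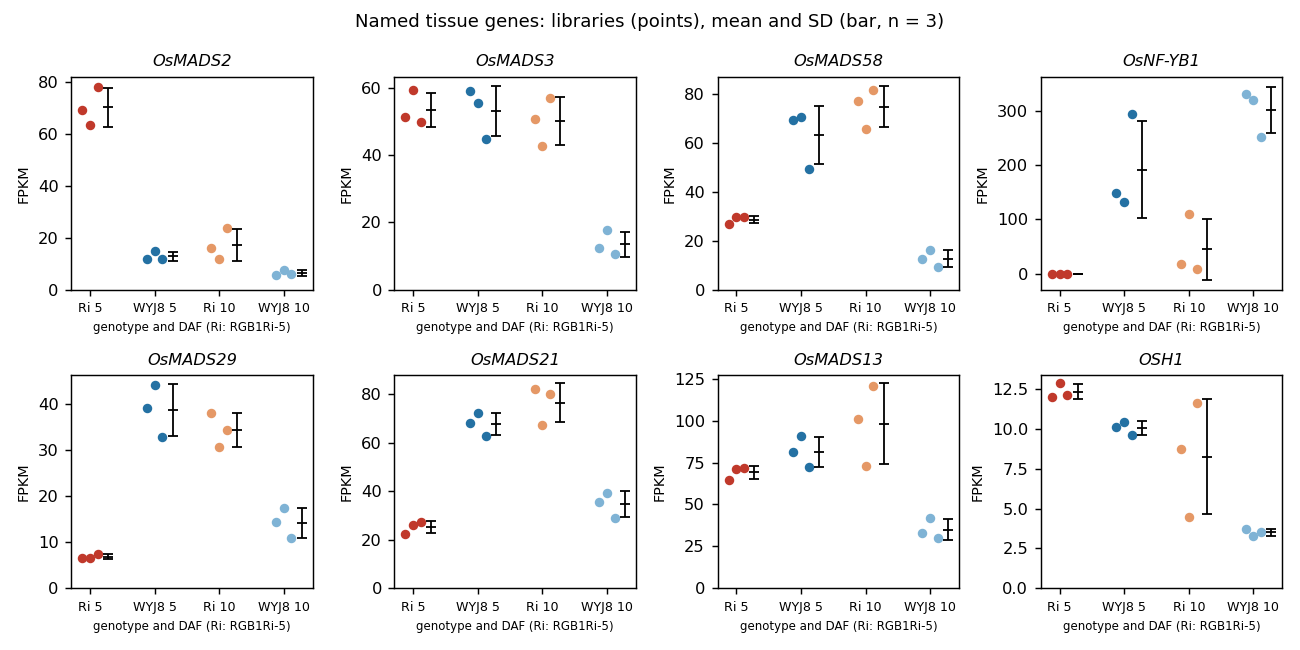
Levels of the 8 named marker genes in FPKM in *RGB1Ri-5* and *WYJ8* at 5 and 10 DAF, with 1 point per library and bars for the mean and SD of 3 libraries. *OsMADS2* is highest in *RGB1Ri-5* at 5 DAF, where *OsNF-YB1* is at or below 0.607 FPKM in all 3 libraries.

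At 10 DAF *OsMADS2* had 16.0, 11.8 and 23.7 FPKM in *RGB1Ri-5*, against 5.54, 7.66 and 5.87 FPKM in *WYJ8*. The log2 difference was 1.26 without rescaling. It was 0.36 after median-of-ratios rescaling and 0.41 after quantile normalization (limma adjusted p = 0.0987 and 0.0647). *OsNF-YB1* had 17.5, 109.6 and 8.04 FPKM in *RGB1Ri-5* at 10 DAF, against 331, 320 and 252 FPKM in *WYJ8* at 10 DAF. Replicate 3 of *RGB1Ri-5* at 10 DAF, the library with the most traces of the 49 genes, thus had the highest *OsMADS2* and the lowest *OsNF-YB1* of its group. It was the highest of its group for 5 of the 8 markers, also *OsMADS3*, *OsMADS58*, *OsMADS13* and *OSH1*, and for 50.3% of the other genes tested. The part of these markers in the traces was not tested.

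Many genes outside the set had a profile like that of the 49 over the 12 libraries. Likeness was taken as Pearson's r of a gene's log2(FPKM + 1) values with the mean profile of the 49, which for the 49 genes themselves was at least 0.978. It was above 0.95 for 782 other genes, sought among all 35587 listed genes without a filter on level. The supplement of the study lists transcription factors predicted to bind the promoter of *OsYUC11*, an auxin biosynthesis gene, and not rice transcription factors at large. Of these, 126 were found in the files, and none is among the 49. Of those with a mean of at least 10 FPKM in *RGB1Ri-5* at 5 DAF, the most alike were the AP2/ERF-B3 factor Os01g0693400 at 0.94, *OsMADS2* at 0.92 and *ONAC068*, a NAC factor, at 0.83. Os01g0693400 had 35.9, 42.5 and 37.5 FPKM in *RGB1Ri-5* at 5 DAF, against 12.7, 17.0 and 22.3 FPKM in *WYJ8* at 5 DAF. *ONAC068* had 35.7, 39.2 and 29.4 FPKM in *RGB1Ri-5* at 5 DAF, against 6.27, 12.8 and 6.70 FPKM in *WYJ8* at 5 DAF. Pearson's r does not measure the size of a difference, and these factors were well above traces in *WYJ8* at 5 DAF. These factors were picked after their values were seen, and each r is over the same 12 libraries, of which the 3 of *RGB1Ri-5* at 5 DAF stand apart by the rule.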

How the data were processed

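RNA of grains of *RGB1Ri-5* and *WYJ8* at 5 and 10 DAF was sequenced by the study. Per the submitters' processing notes and the study's methods, reads were checked with FastQC, mapped with TopHat2 2.1.0 (MSU rice annotation, Release 7), and turned by the authors into the deposited FPKM with Cufflinks 2.1.1, for each library on its own. FPKM hold no counts, so depth is unknown and count tests were not used. Cufflinks divides reads among overlapping genes and copies, which can move single values.

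Groups came from the sample labels. Genes absent from a library were set to 0. The 21470 genes that averaged 1 FPKM or more across the 12 libraries were fitted as log2(FPKM + 1), which understates changes of low genes, in R 4.3.3 by limma 3.58.1 (a mean for each of the 4 groups, trended prior variance, p-values adjusted by Benjamini-Hochberg over the whole table). Calls needed a log2 difference of 1 or more and an adjusted p under 0.05. P-values measure only the spread between these libraries. On simulated data with 21470 genes for the 5 DAF contrast, 189 of 200 genes with a true log2 change of 2 were called, with 3 false calls. The 200 were drawn from genes with a mean log2(FPKM + 1) over 2. Noise was normal with the same spread in all groups, and no other gene differed between groups. The real data are less simple, so these figures do not measure the error of the calls above.

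The 49 genes and all lists were chosen with earlier results of these data known. Genes named with values were those of the 30 with the highest lowest value in *RGB1Ri-5* at 5 DAF that the text takes as examples, the 3 nearest on each side of each threshold, members within 100 kb of one another and the named markers. LOC_Os01g30970, LOC_Os01g33670, LOC_Os02g32600, LOC_Os03g07140 and LOC_Os07g49250 were named outside that rule, after their values were seen. Lists by gene family and searches of promoter and protein sequences were not run, since no table used here pairs MSU identifiers with product names or sequences. The RefSeq gene table at hand, of assembly ASM3414082v1, holds no such identifiers. Alternatives were another pseudocount, other filters, 2 rescalings (median of ratios and quantile normalization), fits of only the compared libraries, a replicate block, limma without the trend, other rule thresholds and each library left out in turn.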

Additional observations from a re-analysis of the deposited data

Results flagged for a closer look

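Of the 8 named markers, 7 had a genotype effect (*RGB1Ri-5* minus *WYJ8*, log2 scale) that differed between the stages by the interaction term of the limma model. Among all 21470 genes tested, 48.3% passed the same thresholds and the median interaction was 0.86, which became -0.06 after median-of-ratios rescaling. The effect at 10 DAF minus that at 5 DAF was 3.66 for *OsNF-YB1* (limma adjusted p = 0.00486), 3.61 for *OsMADS58* (1.21e-06), 3.59 for *OsMADS29* (5.69e-07) and 2.53 for *OsMADS21* (1.24e-06). It was 1.82 for *OsMADS3* (7.45e-05) and 1.68 for *OsMADS13* (0.000127). The genotype effect itself stayed negative for *OsNF-YB1*, at -7.16 at 5 DAF and -3.50 at 10 DAF. It went from called lower to called higher for *OsMADS58* (-1.10 and 2.51), *OsMADS29* (-2.35 and 1.24) and *OsMADS21* (-1.40 and 1.13). After median-of-ratios rescaling the 10 DAF effect was 0.28 for *OsMADS29* and 0.15 for *OsMADS21*. For *OsMADS3* (1.84) and *OsMADS13* (1.45) it was called only at 10 DAF. *OsMADS2*, the marker that was high together with the 49 genes, was the only one of the 7 with a negative interaction, at -1.11 (limma adjusted p = 0.00541). Its value was -0.88 without replicate 2 of *RGB1Ri-5* at 10 DAF and -0.98 without replicate 2 of *WYJ8* at 10 DAF, both short of a log2 difference of 1, and it was larger in size after rescaling, at -2.08 by the median of ratios and -1.93 by quantile normalization. After median-of-ratios rescaling the interactions of *OsMADS3* (0.78) and *OsMADS13* (0.61) were also short of 1, and that of *OsNF-YB1* (2.45) had a limma adjusted p of 0.0801.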

How the results depend on the processing

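The number of chosen genes depended on the thresholds. It was 106 with at least 5 FPKM, 24 with at least 20, 27 with at most 0.5 and 83 with at most 2 FPKM, and 40 after median-of-ratios rescaling, of which 36 were among the 49. Leaving out each library in turn gave 49 to 191, the highest without replicate 3 of *RGB1Ri-5* at 10 DAF. Over all genes, the calls at 5 DAF (4470) stayed within 1.5 times under 14 alternatives (4250 to 4712 with a library left out). The calls at 10 DAF (8527) were 3938 after median-of-ratios rescaling and 3575 after quantile normalization, and 7604 to 10050 with a library left out, and the share of them that were higher was 91.6%, 50.4% and 54.1%. At 5 DAF it was 51.7%, and 57.7% after median-of-ratios rescaling. The stage calls in *RGB1Ri-5* (3631 of 21470 genes tested) were 2401 of the 14932 genes averaging 5 FPKM or more, where fewer genes were tested. They were 3345 to 4003 with a library left out. The neighbours called higher (104) were 60 within 50 kb and 157 within 200 kb, and 100 to 107 with a library left out. *OsMADS3* at 5 DAF, which was not called, was -0.057 after quantile normalization and -0.10 to 0.091 with a library left out. The interaction of *OSH1*, which was not called, was -0.23 after median-of-ratios and -0.19 after quantile normalization. Without replicate 2 of *RGB1Ri-5* at 10 DAF it was 1.03 (limma adjusted p = 0.000215) and passed the call. At 10 DAF, rescaling took *OsMADS2*, *OsMADS13*, *OsMADS21* and *OsMADS29* below a log2 difference of 1, and median-of-ratios also *OsMADS3*, while *OSH1* passed it with a pseudocount of 0.1 or without replicate 2 of *RGB1Ri-5*. Of the other values of named markers, 354 kept their direction and call. Apart from the values' own construction, the cause of these changes was not tested.

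No source used here states that replicate numbers pair libraries, and the main fits used no pairing. Of 18 pairs of same-numbered libraries, 6 had correlated deviations over 0.1 (-0.54 to 0.25). Among them were all 3 between the stages of *WYJ8* (0.11, 0.25 and 0.18), whose difference enters only the interaction. Between the stages of *RGB1Ri-5*, which were compared here, the values were -0.10, 0.16 and 0.13. These correlations cannot settle whether libraries were paired. With a replicate block, 4459 genes were called at 5 DAF, 8529 at 10 DAF and 3622 between the stages of *RGB1Ri-5*.

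The depth behind the traces is unknown, so a gene listed at 0 cannot be told from one below detection.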
